A study of Homo sapiens with 18 samples.

Results

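The genes described here are interferon-stimulated antiviral genes, the effector proteins that a cell makes after interferon has reached its receptor. The list names 41 genes, which were matched to the arrays by symbol. Of these, 40 have a probe set that is annotated to that symbol alone, out of 18417 genes measured in this way. The probe set of GBP1 carries several symbols, and that gene was not analysed here. Each of the 40 genes is represented by 1 probe set.

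Total RNA from human lymphoma cell lines was hybridised to whole-transcript arrays, with 18 arrays in 6 groups of 3. L428 is a Hodgkin lymphoma line that derives from a B cell but expresses few B-cell genes. In its derivative L428-PAX5, mifepristone switches on PAX5, a transcription factor needed for B-cell identity. The groups L428+M and L428-PAX5+M had 0.25 nM mifepristone over 5 days. In L428+MAT and L428-PAX5+MAT, 2 days of mifepristone alone preceded 3 days in which 5-aza-2'-deoxycytidine, a blocker of DNA methylation abbreviated here as 5-aza-dC, was present at 3 µM. Trichostatin A (TSA), which blocks histone deacetylases, was added at 640 nM in the final 24 hours. All 4 groups of these lines therefore had mifepristone. Raji and Namalwa are lines of Burkitt lymphoma, a tumour of mature B cells, and had no treatment. The L428-PAX5+MAT samples carry L425-PAX5 in their titles, and their group was taken from the cell line entry, L428-PAX5. L428-PAX5 was grown in medium with added HEPES, and cells of this line without mifepristone were not analysed here, so PAX5, the derived line and its medium cannot be told apart in any comparison of the lines. Cell line and mifepristone likewise cannot be told apart where Raji and Namalwa are set against L428. The 5-aza-dC and TSA were given together, so each agent's share in a change cannot be told apart either.

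Type I interferons bind the receptor chains IFNAR1 and IFNAR2, and the kinases JAK1 and TYK2 then pass the signal on to a complex that contains IRF9, called ISGF3, which binds the interferon-stimulated response element (ISRE) in the promoters of the genes described here. Cells can also start the response themselves, when sensors of viral RNA or DNA such as RIG-I, MDA5 and cGAS activate interferon regulatory factors. The products block viral entry, replication and translation, and many of them are made at a low level without infection. Inhibitors of DNA methylation are known to induce such genes in tumour cells.

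The promoters show what many of the 40 genes have in common. RefSeq promoter windows of build GRCh38.p14, from 250 bases before to 50 bases after a transcription start, were in the reference table for 33 of the genes. The ISRE core was searched on both strands as 2 copies of GAAA with any 2 bases between them. It was in at least 1 window of 25 of these 33 genes (75.8%), and in 4.38% of the 27305 genes in the table. The gamma-activated sequence TTCNNNGAA, known from genes induced by interferon gamma, was in 10 of 33 (30.3%) against 9.38% of all genes, and 5 of its 13 matches in these windows overlapped an ISRE core. A match describes the letters alone, and no binding or methylation was measured. IFIT2, LAMP3, MX2, OAS2, OASL, TRIM22 and USP18 had no window in the table.

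The following stretches stand for the groups that the drugs separated, with each ISRE core, or its reverse complement, that ends before the start in capitals, read 5′ to 3′ on the strand of the gene. The first 4 belong to genes that rose under 5-aza-dC and TSA in both lines. They lie at chr10:89392487-89392549 (plus strand, IFIT1), chr10:89414503-89414567 (plus, IFIT5), chr1:27672256-27672368 (minus, IFI6) and chr4:88456974-88457074 (plus, HERC5).
IFIT1: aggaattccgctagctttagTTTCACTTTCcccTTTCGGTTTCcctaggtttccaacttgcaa
IFIT5: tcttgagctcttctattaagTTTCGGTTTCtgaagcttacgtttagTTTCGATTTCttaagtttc
IFI6: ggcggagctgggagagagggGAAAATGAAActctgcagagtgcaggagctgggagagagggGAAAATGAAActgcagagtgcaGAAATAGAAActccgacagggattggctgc
HERC5: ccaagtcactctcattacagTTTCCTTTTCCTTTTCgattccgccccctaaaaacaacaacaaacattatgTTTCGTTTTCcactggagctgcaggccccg

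The next 5 belong to genes that rose in L428 and fell in L428-PAX5 under the same drugs. They lie at chr1:78620264-78620404 (plus, IFI44L), chr4:168318776-168318860 (minus, DDX60), chr3:122564312-122564361 (minus, PARP9), chr3:122680790-122680838 (plus, PARP14) and chr21:41431834-41431883 (plus, MX1).
IFI44L: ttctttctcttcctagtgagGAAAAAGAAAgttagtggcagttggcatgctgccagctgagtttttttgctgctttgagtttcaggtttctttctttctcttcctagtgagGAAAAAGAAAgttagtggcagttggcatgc
DDX60: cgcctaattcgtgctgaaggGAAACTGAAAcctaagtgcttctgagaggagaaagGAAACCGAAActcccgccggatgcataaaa
PARP9: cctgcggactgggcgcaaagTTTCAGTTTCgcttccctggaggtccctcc
PARP14: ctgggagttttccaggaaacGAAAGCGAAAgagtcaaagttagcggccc
MX1: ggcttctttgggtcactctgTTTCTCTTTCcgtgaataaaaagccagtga

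The last 3 with a match belong to IFIT3, which fell in L428-PAX5, IFI27, which rose in L428 alone by the test, and ISG15, which passed in neither line. They lie at chr10:89327821-89327904 (plus, IFIT3), chr14:94110608-94110670 (plus, IFI27) and chr1:1013364-1013419 (plus, ISG15). HERC6, the neighbour of HERC5, is shown with the 60 bases before its start, chr4:88378792-88378851 (plus), because its window had no match.
IFIT3: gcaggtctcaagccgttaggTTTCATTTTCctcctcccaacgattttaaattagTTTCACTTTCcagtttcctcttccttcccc
IFI27: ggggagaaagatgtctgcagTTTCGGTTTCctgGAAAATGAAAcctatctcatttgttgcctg
ISG15: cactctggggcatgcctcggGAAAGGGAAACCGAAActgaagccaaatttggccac
HERC6: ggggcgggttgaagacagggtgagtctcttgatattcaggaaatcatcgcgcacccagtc

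IFIT5 has another match that crosses its start, and the printed stretch ends within it. The window of IFI44L holds an 85-base stretch in 2 copies, and each copy carries 1 match. PARP9 and DTX3L, whose products form a complex, face away from each other and share 1 match, at chr3:122564332-122564341, which reads TTTCAGTTTC on the strand of PARP9, 41 bases before its start, and GAAACTGAAA on the strand of DTX3L, 6 bases before its start. Split by their behaviour under the drugs, a match was in 4 of 4 genes with windows that rose in both lines, in 8 of 12 that rose in L428 and fell in L428-PAX5, in 8 of 10 that rose in L428 alone by the test and in 4 of 5 that fell in L428-PAX5 alone by the test. The number of CG dinucleotides, the letters at which DNA is methylated, ran from 4 to 21 per window in the first of these classes and from 0 to 35 in the second, so their ranges overlapped. Its median over the 46 windows of the interferon-stimulated genes was 7.5, against 14 over all 35116 windows.

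Arrays of a group correlated across genes with r from 0.9628 to 0.9961, and no pair held identical values. PAX5 separated the groups as labelled, with mean log2 signals of 12.73 and 12.79 in L428-PAX5+M and L428-PAX5+MAT, against 7.49 and 7.17 in L428+M and L428+MAT. All 7 B-cell markers measured were higher in the Burkitt lines than in L428+M, and 7 of 8 Hodgkin markers were lower. The mean over 8 T and NK cell markers stayed between 5.52 and 5.84 on the 12 arrays of both L428 lines, and none of the T and NK, myeloid or fibroblast markers passed under the drugs in L428. Replicate 2 of L428-PAX5+MAT stood apart: 27 of the 40 genes were lowest on it within its group, and their median there was 7.61 against 7.94 and 8.09 on replicates 1 and 3. How many of all genes were lowest on replicate 2 was not counted. The median over all genes on these arrays was 7.25, 7.26 and 7.14. RMA, the processing noted for these values, scales arrays to one another, so close medians do not show that the arrays were alike. Across all genes replicate 2 correlated with L428-PAX5+M replicate 1 at r = 0.9212, against 0.9527 and 0.9519 for replicates 1 and 3. For the drug changes of the 40 genes in L428-PAX5, the counts and calls that change without it are given both ways. For the pathway lists, the calls that change without it are named, and the counts are those with all arrays. Arrays measure RNA of whole cultures, so fewer cells with a transcript and less of it per cell cannot be told apart. Whether replicates came from separate cultures is not in the labels. P-values then measure only how far these samples spread, which may be technical.

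The 40 genes were at their highest in L428 given the drugs. L428+MAT had the highest group mean for 29 of them, and for 25 of these its 3 arrays lay above every array of the next group. The median log2 signal over the 40 genes was between 9.79 and 9.87 on the L428+MAT arrays and between 8.45 and 8.54 in L428+M. In L428-PAX5+M it was between 8.42 and 8.52, which overlaps L428+M. L428-PAX5+MAT followed with 7.61 to 8.09, Namalwa with 7.46 to 7.54 and Raji with 6.08 to 6.37. L428-PAX5+MAT, the other group given the drugs, was therefore below both groups without them, and its replicate 2 lay within 0.15 of Namalwa. Raji had the lowest group mean for 22 of the 40 genes, Namalwa for 9 and L428-PAX5+MAT for 7. The orders of the groups were not counted over all genes. The median over all genes was between 7.02 and 7.26 over the 18 arrays, which were scaled to one another in processing.

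**Figure D1:**
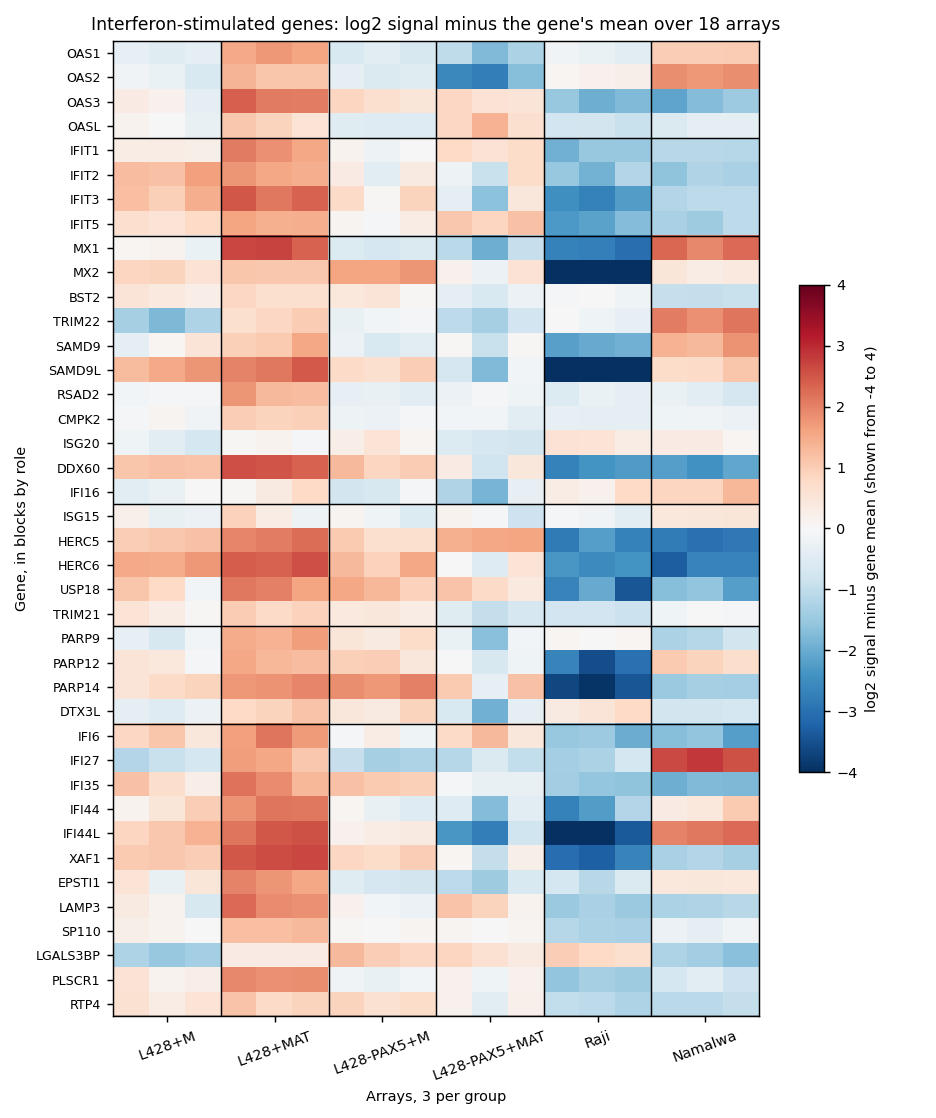
Log2 signal of the 40 interferon-stimulated genes (rows, in blocks by role) on the 18 arrays (columns, 3 per group), with each gene's mean over all arrays subtracted. Colours are shown from -4 to 4. L428+MAT is above the gene mean for nearly the whole column, and replicate 2 of L428-PAX5+MAT is lower than its group for 27 genes.

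Exposure of L428 to 5-aza-dC and TSA raised most of the genes and lowered none by the test. Of the 40, 31 were higher in L428+MAT than in L428+M (limma, Benjamini-Hochberg adjusted over all 18417 genes, adjusted p below 0.05), where 4.21% of all genes were higher. No gene of the list was lower at this adjusted threshold, where 0.635% of all genes were. At an unadjusted p below 0.05 in limma, none of the list was lower either. At least 2-fold rises were seen for 25 genes, against 1.93% of all genes. The median log2 change was 1.12 over the 40 genes and -0.04 over all genes, and the 40 changes ran from 0.23 to 2.59. For 38 of the genes the 3 arrays of L428+MAT lay above the 3 of L428+M without overlap, a count that was not made over all genes.

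The largest rise was that of MX1, a GTPase that traps viral ribonucleoproteins. MX1 read 8.46, 8.50 and 8.11 in L428+M against 11.04, 11.07 and 10.72 in L428+MAT. The groups lay more than 2 log2 units apart, and the change of 2.59 ± 0.21 (log2 ± SE, n = 3 per group) corresponds to 6.03-fold (limma adjusted p = 1.61e-07). IFI27, a small membrane protein strongly induced by type I interferon, had 5.71, 6.0 and 6.18 without the drugs and 8.57, 8.44 and 7.98 with them. TRIM22, a ubiquitin ligase that restricts several viruses, had 5.62, 5.13 and 5.71 against 7.59, 7.77 and 7.95. Neither gene had overlapping arrays, and the rises were 5.17-fold for IFI27 (limma adjusted p = 3.55e-07) and 4.87-fold for TRIM22 (limma adjusted p = 7.24e-08). LAMP3, a lysosomal membrane protein, went from 7.56, 7.35 and 6.55 to 9.46, 9.11 and 9.03, a change of 2.05 ± 0.24.

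The oligoadenylate synthetases make the messenger that activates the ribonuclease RNase L, apart from OASL, which lacks this activity and binds the RNA sensor RIG-I. All 4 rose in L428. OAS3 had 8.0, 7.83 and 7.29 in L428+M against 10.06, 9.75 and 9.73 in L428+MAT, a 4.41-fold rise (limma adjusted p = 8.66e-07). OAS1 had 8.64, 8.48 and 8.59 against 10.47, 10.70 and 10.53, or 3.99-fold. The values of the treated arrays were thus above those of the controls throughout, and OAS2 and OASL rose less, by 1.51 ± 0.20 and 0.89 ± 0.17.

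Of the 4 IFIT genes, 2 rose, among them IFIT1, whose product binds viral RNA that lacks the cell's own cap methylation. IFIT1 had 7.32, 7.32 and 7.25 in L428+M against 9.08, 8.84 and 8.57 in L428+MAT, a rise of 1.53 ± 0.15, and IFIT5 rose by 0.82 ± 0.16. IFIT3, which stabilises IFIT1 on RNA, had 8.95, 8.68 and 9.20 against 10.22, 9.84 and 10.11, and its arrays did not overlap, but the change of 1.12 ± 0.35 did not pass (limma adjusted p = 0.0811). IFIT2 changed by 0.23 ± 0.30 (limma adjusted p = 0.803), with overlapping arrays.

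Among the 11 restriction factors and proteins that handle nucleic acids, 6 rose: MX1, TRIM22, SAMD9, RSAD2, CMPK2 and DDX60. RSAD2, the radical enzyme viperin, and CMPK2, a nucleotide kinase encoded beside it, changed by 1.5 ± 0.15 and 0.97 ± 0.12. The other 5 did not pass. MX2, a relative of MX1 that restricts retroviruses, had 10.19, 10.22 and 9.92 in L428+M against 10.43, 10.40 and 10.42 in L428+MAT (limma adjusted p = 0.398). BST2, the tetherin that holds budding virions at the cell surface, had 9.90, 9.75 and 9.63 against 10.21, 10.00 and 10.01 (limma adjusted p = 0.287). IFI16, a sensor of DNA, had 11.09, 11.26 and 11.51 against 11.57, 11.88 and 12.32 (limma adjusted p = 0.332). In each of these 3 genes the treated arrays lay just above the controls, and the changes were 0.30 ± 0.16, 0.31 ± 0.14 and 0.63 ± 0.30. ISG20, an exonuclease, and SAMD9L, a relative of SAMD9, changed by 0.48 ± 0.15 and 0.66 ± 0.28.

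ISG15 is a ubiquitin-like protein that HERC5 attaches to other proteins and USP18 removes. ISG15 itself read 7.92, 7.42 and 7.49 in L428+M against 8.63, 8.01 and 7.50 in L428+MAT, with overlap, and its change of 0.44 ± 0.26 did not pass (limma adjusted p = 0.479). HERC5 (0.99 ± 0.16), its relative HERC6 (0.89 ± 0.23), USP18 (1.31 ± 0.33) and the ubiquitin ligase TRIM21 (0.62 ± 0.14) rose. USP18 has a near-identical copy in the genome, and its signal may be shared with it. All 4 of the genes PARP9, PARP12, PARP14 and DTX3L, which encode ADP-ribosyltransferases and the ubiquitin ligase partner of PARP9, rose by between 1.07 and 1.87. Of the remaining 12 induced proteins 11 rose, all at least 2-fold, with PLSCR1, a scramblase of membrane lipids, at 1.55 ± 0.15 and LGALS3BP, a secreted galectin-binding glycoprotein, at 1.71 ± 0.16. RTP4 was the exception at 0.45 ± 0.17 (limma adjusted p = 0.16).

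Equal replicate numbers marked related arrays among the L428 groups, and 35 genes were higher in a fit that blocked on them. The 4 that then passed were IFIT3 (limma adjusted p = 0.00923), ISG20 (0.0127), IFI16 (0.0293) and RTP4 (0.0412). With any 1 array of the comparison left out, between 25 and 28 genes were higher, and 23 of the 31 passed in every such fit. HERC6, IFI44, IFI44L, IFI6, PARP14, SAMD9, TRIM21 and USP18 lost their call in at least 1 of them, with adjusted p of at most 0.14, reached by IFI44L without L428+M replicate 1. Among these fits, HERC6 and IFI44L passed only without L428+M replicate 3. They also lost the call under quantile normalization (limma adjusted p = 0.0504 and 0.0701), and IFI44L with array medians subtracted (0.0501).

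In L428-PAX5 the same drugs split the genes. Relative to L428-PAX5+M, 20 of the 40 were lower in L428-PAX5+MAT, 6 were higher and 14 did not pass. In this line the drugs changed many genes, with 19.4% of all genes lower and 14.2% higher. The 6 rises among the 40 are therefore close to the share over all genes, while the 20 falls are above it. At least 2-fold falls were seen for 14 of the 40 and a rise of that size for 1, against 6.33% and 4.71% of all genes. Without replicate 2 of L428-PAX5+MAT, falls of that size were seen for 6 genes, DTX3L, IFI35, IFI44L, MX2, OAS2 and SAMD9L, and rises of that size for 2, OASL and IFIT5. Without replicate 3 of that group, 16 genes fell and 3 rose at least 2-fold, and without L428-PAX5+M replicate 3, 13 fell and 2 rose. The median log2 change was -0.69 over the 40 genes, from -2.25 to 1.46, and -0.04 over all genes.

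Set side by side, the outcomes in both lines formed 5 classes. OASL, IFIT1, IFIT5, IFI6, HERC5 and LAMP3 rose in both. MX1, OAS1, OAS2, IFI35, IFI44L, HERC6, XAF1, PARP9, PARP12, PARP14, DTX3L, DDX60, TRIM21 and TRIM22, 14 genes, rose in L428 and fell in L428-PAX5. Another 11 rose in L428 and did not pass in L428-PAX5: OAS3, IFI27, IFI44, RSAD2, USP18, CMPK2, EPSTI1, SAMD9, SP110, LGALS3BP and PLSCR1. MX2, IFIT3, ISG20, SAMD9L, BST2 and RTP4 did not pass in L428 and fell in L428-PAX5. IFIT2, IFI16 and ISG15 passed in neither.

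**Figure D2:**
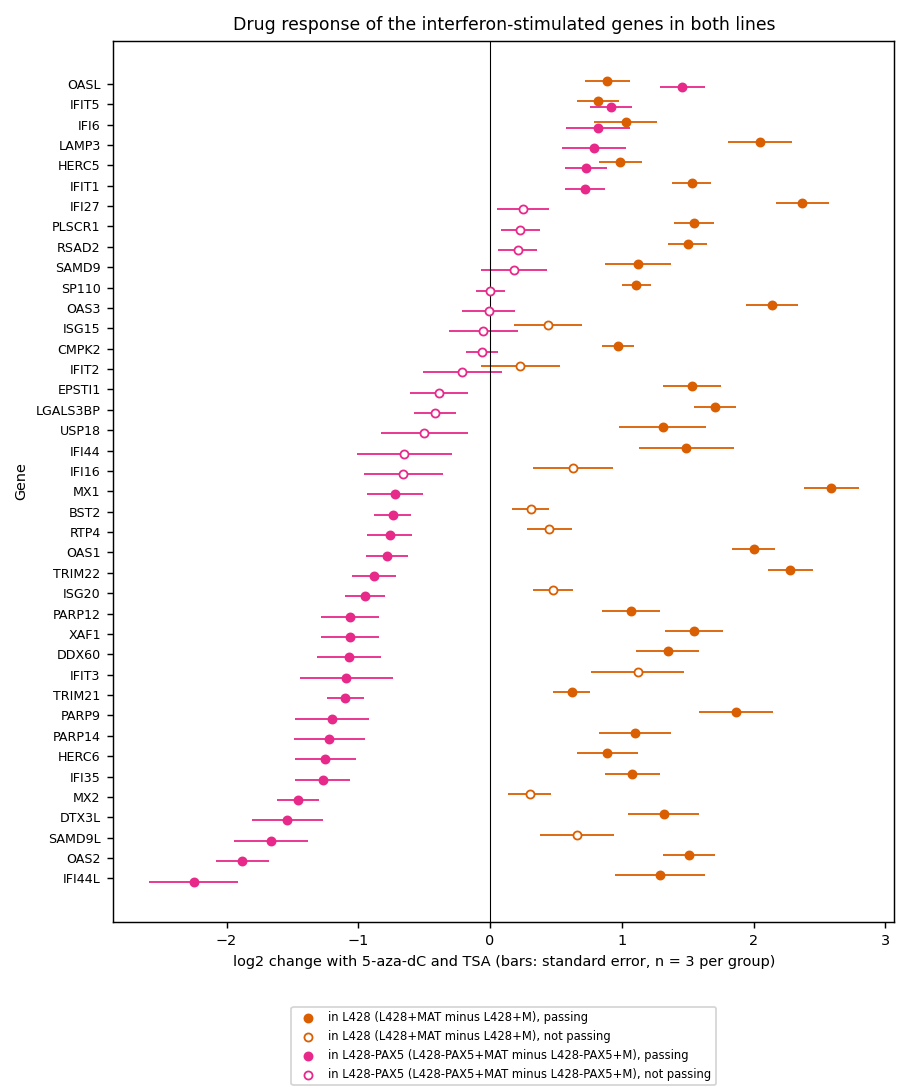
Log2 change under 5-aza-dC and TSA for each of the 40 genes, in L428 (orange) and in L428-PAX5 (pink), with bars for the standard error (n = 3 per group) and filled points for an adjusted p below 0.05. All orange points lie above 0, while the pink points run from 1.46 for OASL down to -2.25 for IFI44L.

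The 6 genes that rose in L428-PAX5 spanned several roles. OASL had 6.89, 6.86 and 6.87 in L428-PAX5+M against 8.21, 8.76 and 8.02 in L428-PAX5+MAT, 2.75-fold (limma adjusted p = 4.98e-06). The groups lay clearly apart, and OASL was the only gene of the 40 with its highest group mean in L428-PAX5+MAT, although those arrays overlapped with L428+MAT at 8.46, 8.26 and 7.92. IFIT5 had 7.97, 7.80 and 8.16 against 8.95, 8.71 and 9.02, a change of 0.92 ± 0.16. IFI6, a small protein of mitochondrial and endoplasmic reticulum membranes, had 10.45, 10.84 and 10.38 against 11.30, 11.85 and 10.98, or 0.82 ± 0.24. Neither overlapped. IFIT1 rose from 7.15, 6.81 and 7.02 to 7.81, 7.58 and 7.76, and HERC5 from 8.87, 8.48 and 8.46 to 9.25, 9.36 and 9.39. LAMP3 had 7.37, 7.11 and 6.96 against 8.36, 8.09 and 7.36, with overlapping arrays, and a change of 0.79 ± 0.24 (limma adjusted p = 0.0165).

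The largest falls were those of IFI44L and OAS2. IFI44L had 9.50, 9.61 and 9.69 in L428-PAX5+M against 6.98, 6.54 and 8.52 in L428-PAX5+MAT, which corresponds to 4.77-fold lower (limma adjusted p = 5.97e-05). OAS2 had 8.85, 8.62 and 8.72 against 6.62, 6.43 and 7.50, or 3.67-fold lower (limma adjusted p = 1.64e-06). In both genes replicate 3 of the treated group was the least reduced, and every treated array was still below the controls. SAMD9L, a growth-restraining antiviral protein, had 10.52, 10.37 and 10.73 against 9.07, 7.96 and 9.62, DTX3L had 9.57, 9.48 and 9.99 against 8.52, 7.18 and 8.72, and MX2 had 10.92, 10.91 and 11.08 against 9.51, 9.09 and 9.91. Their changes were -1.66 ± 0.28, -1.54 ± 0.27 and -1.46 ± 0.16, without overlap of the arrays.

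Next came IFI35, whose product pairs with NMI, and HERC6. IFI35 had 9.94, 9.82 and 9.74 in L428-PAX5+M against 8.74, 8.47 and 8.47 in L428-PAX5+MAT, a change of -1.27 ± 0.21. HERC6 had 9.22, 8.84 and 9.48 against 7.92, 7.39 and 8.47, or -1.25 ± 0.23. Both were lower on all treated arrays, and the PARP genes and TRIM21 fell by similar amounts. PARP14 had 10.14, 10.01 and 10.30 against 9.35, 7.97 and 9.47, PARP9 had 8.23, 8.10 and 8.48 against 7.48, 6.08 and 7.65, and TRIM21 had 8.51, 8.57 and 8.42 against 7.61, 7.14 and 7.44. Replicate 2 was the lowest treated array in each of these 3 genes.

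MX1, the gene with the largest rise in L428, had 7.83, 7.71 and 7.79 in L428-PAX5+M against 7.30, 6.42 and 7.45 in L428-PAX5+MAT, and its change of -0.72 ± 0.21 passed (limma adjusted p = 0.0119). OAS1 had 8.37, 8.50 and 8.31 against 7.95, 7.19 and 7.69, TRIM22 had 6.65, 6.81 and 6.85 against 5.89, 5.61 and 6.16, and BST2 had 9.79, 9.87 and 9.43 against 8.97, 8.76 and 9.13. These falls, of -0.78 ± 0.16, -0.88 ± 0.17 and -0.74 ± 0.14, were seen on every treated array. IFI27, which had risen 5.17-fold in L428, stayed near its lowest level, with 5.98, 5.57 and 5.67 against 5.76, 6.31 and 5.90 (limma adjusted p = 0.401). IFI16 had 10.78, 10.88 and 11.45 against 10.31, 9.65 and 11.18, a change of -0.66 ± 0.30 that did not pass (limma adjusted p = 0.105). ISG15 had 7.81, 7.53 and 7.18 against 7.86, 7.65 and 6.88, and SP110, a nuclear body protein, had a change of 0.00 ± 0.11.

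**Figure D3:**
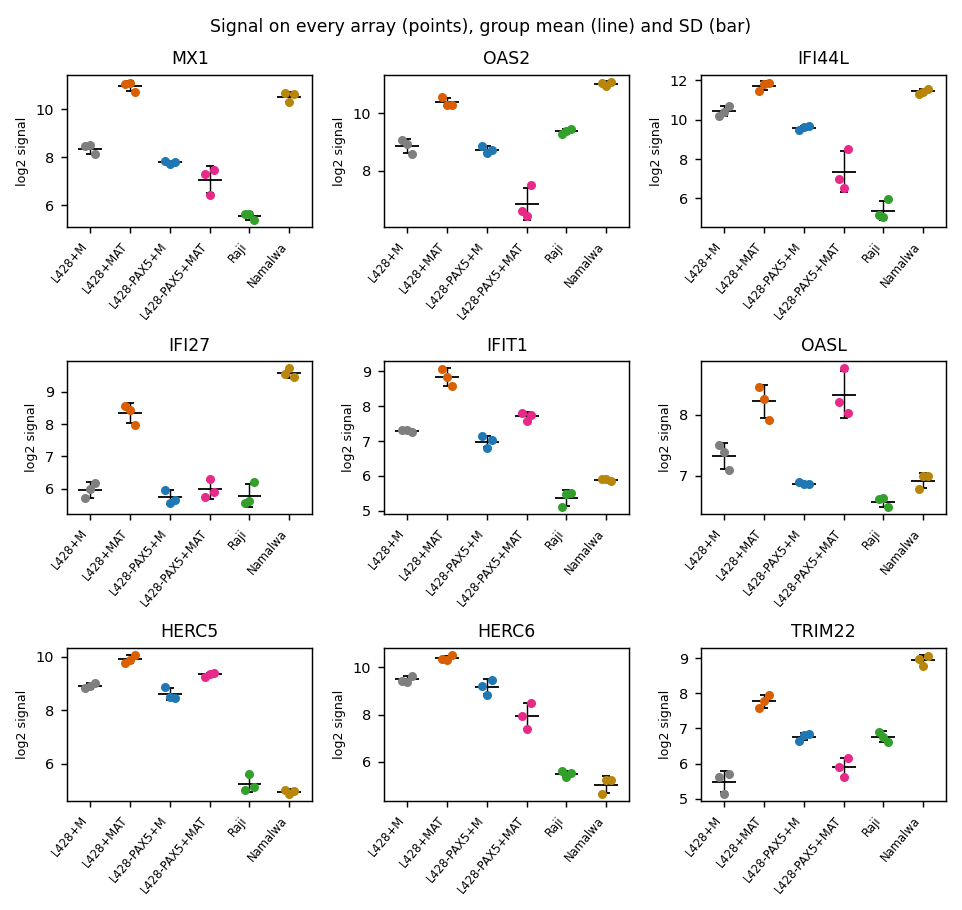
Log2 signal on every array for 9 of the genes, with 1 point per array, a line at the group mean and a bar for the SD (n = 3). MX1, OAS2, IFI44L, HERC6 and TRIM22 rise in L428+MAT and fall in L428-PAX5+MAT, while IFIT1, OASL and HERC5 rise in both. IFI27 is at 5.99 on average in L428-PAX5+MAT against 8.33 in L428+MAT.

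Without replicate 2 of L428-PAX5+MAT, 18 genes were lower and 4 higher. The calls of MX1 (log2 change -0.40, limma adjusted p = 0.0841), IFIT3 (-0.52), IFI6 (0.59) and LAMP3 (0.71) were then lost, and the falls of PARP14 (-0.74), PARP9 (-0.71), XAF1 (-0.69) and DDX60 (-0.68), though still passing, were reduced by more than 1.5 times. IFIT3 and LAMP3 also lost their calls without 2 other arrays each, and 22 of the 26 calls were kept without any 1 array. Blocking on the replicate number gave 23 lower genes, among them USP18 (limma adjusted p = 0.034), IFI16 (0.00524) and LGALS3BP (0.00735). Of the 8 Hodgkin markers, 3 were lower under the drugs in L428-PAX5 (CCL17, -1.78 ± 0.17, MSC, -1.45 ± 0.24, and TNFRSF8, -1.23 ± 0.21) and ID2, LGALS1 and CSF1R were higher (0.93 ± 0.26, 0.88 ± 0.15 and 0.71 ± 0.18). The 3 arrays of L428-PAX5+M had a mean over the list of 10.45, 10.27 and 9.98, against 10.03, 9.95 and 9.72 for those with the drugs, and none of the 8 passed in L428. Of markers of other cell types, 1 of 8 myeloid markers (CD14, 0.58 ± 0.16) and 2 of 6 fibroblast markers (COL1A1, 0.71 ± 0.17, and LUM, 0.60 ± 0.13) were higher. The means of these last lists were 5.54 to 5.68 and 5.62 to 5.73 without the drugs and 5.64 to 5.88 and 5.73 to 5.85 with them, and the part of these markers in the result was not tested.

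The interaction of line and drugs tested whether the drug change differed between the lines. It was lower in L428-PAX5 than in L428 for 33 of the 40 genes and higher for none, where 10.6% and 5.64% of all genes passed in these directions. At an unadjusted p below 0.05, limma gave 34 lower and 1 higher. The median difference of the log2 changes was -1.86 over the 40 genes and 0.01 over all genes. It was largest for IFI44L, at -3.54 ± 0.49, OAS2, at -3.39 ± 0.29, MX1, at -3.31 ± 0.30, TRIM22, at -3.16 ± 0.24, and PARP9, at -3.07 ± 0.40. DTX3L, OAS1 and XAF1, a partner of the apoptosis inhibitor XIAP, followed at -2.86 ± 0.39, -2.78 ± 0.22 and -2.61 ± 0.31. XAF1 went from 10.47, 10.50 and 10.40 to 11.92, 12.02 and 12.08 when L428 was given the drugs. In L428-PAX5 it went from 10.25, 10.16 and 10.39 to 9.51, 8.48 and 9.64.

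The 7 genes that did not pass the interaction were OASL (0.56 ± 0.25, limma adjusted p = 0.136), IFIT5 (0.10 ± 0.22), IFI6 (-0.21 ± 0.34), HERC5 (-0.26 ± 0.22), IFIT2 (-0.44 ± 0.43), ISG15 (-0.49 ± 0.37) and SAMD9 (-0.94 ± 0.36, limma adjusted p = 0.0819). So of the 6 genes that rose in both lines, OASL, IFIT5, IFI6 and HERC5 had drug changes that the test did not tell apart between the lines, while IFIT1 (-0.81 ± 0.21) and LAMP3 (-1.26 ± 0.34) rose less in L428-PAX5. A test that misses the threshold does not show equal changes. All 11 genes that passed in L428 alone were lower in the interaction except SAMD9, and all 6 that passed in L428-PAX5 alone were lower. SAMD9 passed with the replicate block (limma adjusted p = 0.0205) and without L428+M replicate 3 (0.0333) or L428-PAX5+MAT replicate 3 (0.0419). IFI16 lost its call without any 1 of 8 arrays, and OASL was higher without L428-PAX5+MAT replicate 3 (0.72, limma adjusted p = 0.0414).

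Before the drugs, the lines differed in 13 of the 40 genes, in both directions. L428-PAX5+M was higher than L428+M in 8 genes and lower in 5, and 27 did not pass, where 9.72% of all genes were higher and 6.55% lower. The median log2 difference was -0.16 for the 40 genes and -0.03 for all genes. The comparison shares the L428+M arrays with the drug comparison in L428 and with the Burkitt comparison, and the L428-PAX5+M arrays with the drug comparison in L428-PAX5, so these results are not independent of one another. LGALS3BP differed most, with 6.56, 6.30 and 6.44 in L428+M against 9.12, 8.78 and 8.65 in L428-PAX5+M, 5.33-fold higher (limma adjusted p = 8.38e-09). TRIM22 was 2.43-fold and PARP14 2.19-fold higher, and DTX3L, PARP9, MX2, ISG20 and OAS3 were higher by between 0.62 and 0.94 log2 units. PARP14 had 8.82, 9.05 and 9.19 in L428+M, DTX3L 8.74, 8.59 and 8.87 and PARP9 7.44, 7.12 and 7.64, each below all 3 arrays of L428-PAX5+M given above.

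On the lower side, IFIT2 had 7.91, 7.86 and 8.33 in L428+M against 7.0, 6.26 and 7.03 in L428-PAX5+M, a difference of -1.27 ± 0.30. EPSTI1 had 7.68, 6.83 and 7.63 against 6.64, 6.47 and 6.39, IFI6 had 11.36, 11.65 and 10.98 against the lower values given above, and IFIT5 had 8.52, 8.41 and 8.64. The differences were -0.88 ± 0.22, -0.78 ± 0.24 and -0.55 ± 0.16. PLSCR1 had 7.84, 7.41 and 7.52 against 7.13, 6.98 and 7.16. Of the 13 calls, 6 were kept without any 1 array: LGALS3BP, TRIM22, PARP14, MX2, ISG20 and IFIT2. The other 7 were DTX3L, EPSTI1, IFI6, IFIT5, OAS3, PARP9 and PLSCR1, and the highest adjusted p among them was 0.203, for OAS3 without L428+M replicate 3. Without L428+M replicate 1 or L428-PAX5+M replicate 1, 2 genes were lower, without L428-PAX5+M replicate 2, 3 were, and without L428+M replicate 2, 5 were higher. Blocking on the replicate number gave 9 lower and 10 higher genes. IFI44L (limma adjusted p = 0.0229), MX1 (0.0383), OASL (0.0366) and SAMD9L (0.0179) joined the lower ones, and PARP12 (0.0465) and USP18 (0.0113) the higher ones.

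With the drugs in both lines, nearly the whole set was lower in L428-PAX5. L428-PAX5+MAT was lower than L428+MAT in 37 of the 40 genes and higher in none, where 17.7% of all genes were lower and 14.3% higher. At an unadjusted p below 0.05, limma gave 38 lower and 0 higher. At least 2-fold lower levels were seen in 31 genes, against 6.90% of all genes, and the median was -1.60 for the 40 genes and 0.00 for all genes. IFI44L had 11.47, 11.80 and 11.88 in L428+MAT, so the L428-PAX5+MAT arrays were 20.7-fold lower (limma adjusted p = 3.45e-08). MX1 was 14.8-fold, OAS2 11.5-fold, SAMD9L 8.19-fold and OAS1 7.75-fold lower. OAS2 had 10.55, 10.30 and 10.30 in L428+MAT and SAMD9L had 11.72, 11.85 and 12.18. For 38 of the 40 genes the arrays of the groups did not overlap, which was not counted over all genes.

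OASL (0.11 ± 0.17), ISG15 (-0.59 ± 0.26, limma adjusted p = 0.0996) and LGALS3BP (0.28 ± 0.16) did not pass between the lines under the drugs. ISG15 passed with the replicate block (limma adjusted p = 0.0114) and without L428+MAT replicate 3 (0.0187) or L428-PAX5+MAT replicate 1 (0.0443). IFIT5 (-0.45 ± 0.16) passed with an adjusted p of 0.0306 in limma and lost the call without any 1 of 4 arrays, with 0.128 without L428-PAX5+MAT replicate 2, and under quantile normalization (0.145). HERC5 (-0.56 ± 0.16) lost it under quantile normalization (-0.37, limma adjusted p = 0.116). PARP14 (-1.18 ± 0.27) was lower by -0.71 without replicate 2 of L428-PAX5+MAT and still passed.

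The genes upstream of this set are given from fixed pathway lists, from ligand to sensor. Over all genes, 4.21% were higher and 0.635% lower under the drugs in L428, and 14.2% higher and 19.4% lower in L428-PAX5. Of 16 interferon genes measured, IFNG alone passed under the drugs, in both lines. In L428 it went from 5.22, 4.99 and 5.93 to 6.28, 6.20 and 7.29. In L428-PAX5 it went from 5.24, 4.82 and 5.21 to 5.75, 5.99 and 6.68. These are low signals, the changes were 1.20 ± 0.32 and 1.05 ± 0.32, and the calls were lost without any 1 of 3 arrays in L428 (limma adjusted p up to 0.204) and of 2 in L428-PAX5 (up to 0.0858). The L428 call of IFNG was also lost with only the groups compared (limma adjusted p = 0.091). With dim genes left out, 0 interferon genes were higher in either line. Under quantile normalization IFNL3 rose in L428-PAX5 as well (0.58, limma adjusted p = 0.0472). IFNB1, the type I interferon that most cells make, had 4.01, 3.98 and 4.37 in L428+M against 3.89, 3.88 and 4.39 in L428+MAT. With the replicate block IFNL1 also rose in L428 (0.53, limma adjusted p = 0.0421), and IFNB1 (-0.37) and IFNK (-0.29) passed in L428-PAX5 (0.0466 and 0.049). All arrays of IFNB1 and IFNK read between 3.56 and 4.39, far below the median of 6.62 over all values, so these differences do not show a change in expression. Interferon alpha genes share much of their sequence, so their probe sets may share signal.

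None of the 6 receptor chains passed in L428, with 0 higher and 1 lower at an unadjusted p below 0.05 in limma. In L428-PAX5 4 fell, where 19.4% of all genes did. IFNAR1 had 8.71, 8.19 and 8.30 in L428-PAX5+M against 7.70, 7.11 and 7.62 in L428-PAX5+MAT, a change of -0.92 ± 0.18, where L428 had 9.26, 9.0 and 9.25 against 9.35, 9.07 and 8.90. IFNAR2 changed by -0.71 ± 0.21, IFNGR2 by -0.64 ± 0.21 and IL10RB, a chain of the receptor for interferon lambda, by -0.57 ± 0.16. Only IFNAR1 still passed of these 4 without replicate 2 of L428-PAX5+MAT, and IFNAR1 and IL10RB without replicate 1 of L428-PAX5+M. The interaction was lower for IFNAR1, at -0.86 ± 0.25 (limma adjusted p = 0.0238), and it did not pass without any 1 of 4 arrays (0.0734 without L428-PAX5+M replicate 1). With the replicate block IL10RB also fell in L428 (-0.48, limma adjusted p = 0.0456).

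IRF9, the DNA-binding part of ISGF3, was the only 1 of 4 relay genes measured that passed in either line. It had 8.97, 9.16 and 9.39 in L428+M against 9.91, 10.46 and 10.45 in L428+MAT, a rise of 1.10 ± 0.16 (limma adjusted p = 1.55e-04). In L428-PAX5 it was 7.95, 8.11 and 8.09 without the drugs and 8.25, 8.08 and 8.14 with them, so the arrays overlapped, and the interaction passed at -1.0 ± 0.22 (limma adjusted p = 0.00486). JAK2 fell in L428-PAX5 with the replicate block (-0.43, limma adjusted p = 0.0227).

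Of 7 interferon regulatory factors, 2 rose in L428, where 4.21% of all genes did. In L428-PAX5 2 rose and 5 fell, where 14.2% of all genes rose and 19.4% fell. IRF1, an activator of interferon genes, had 9.36, 9.42 and 9.32 in L428+M against 10.10, 9.98 and 10.25 in L428+MAT. In L428-PAX5 it started higher, at 11.26, 11.08 and 10.93, and fell to 10.54, 9.95 and 9.99, a change of -0.93 ± 0.15 that is opposite to the rise of 0.74 ± 0.15. IRF8 rose in both, by 0.98 ± 0.28 and 1.14 ± 0.28, and IRF7, the factor that amplifies type I interferon, by 0.85 ± 0.24 in L428-PAX5. IRF7 did not pass in L428, but did with the replicate block (0.83, limma adjusted p = 0.00946). The call of IRF8 in L428 was lost without any 1 of 5 arrays (limma adjusted p up to 0.215, without L428+M replicate 3), and that of IRF7 without L428-PAX5+MAT replicate 2 (0.54, limma adjusted p = 0.0828). IRF5 (-1.46 ± 0.23) and IRF2 (-1.13 ± 0.22), a competitor of IRF1, fell most in L428-PAX5.

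Among 18 sensors and adaptors, 3 rose in L428, where 4.21% of all genes did. In L428-PAX5 1 rose and 11 fell, where 14.2% of all genes rose and 19.4% fell. RIGI, the RNA sensor RIG-I, rose in both lines: it had 7.62, 7.62 and 7.91 in L428+M against 9.75, 9.33 and 9.66 in L428+MAT, and 7.57, 7.13 and 7.75 against 9.14, 8.90 and 9.17 in L428-PAX5. The treated arrays of both lines lay above the controls, with changes of 1.86 ± 0.19 and 1.59 ± 0.19. IFIH1, the related sensor MDA5, had 10.69, 10.59 and 10.68 in L428-PAX5+M against 9.56, 8.47 and 9.80 in L428-PAX5+MAT, a change of -1.38 ± 0.23, and MYD88, the adaptor of Toll-like receptors, changed by -1.33 ± 0.25. EIF2AK2, the kinase PKR that stops translation on viral RNA, rose by 0.75 ± 0.16 in L428 and fell in L428-PAX5 by 1.17 on the log2 scale. DHX58 showed the same pattern at 0.85 ± 0.20 and -0.68 ± 0.20, and its calls were lost without any 1 of 4 arrays in L428 (limma adjusted p up to 0.0977) and of 2 in L428-PAX5 (up to 0.0607). Without replicate 2 of L428-PAX5+MAT, the falls of DHX58 (-0.60, limma adjusted p = 0.0584), TBK1 (-0.24, 0.205) and TICAM1 (-0.47, 0.0503) did not pass. The interaction was lower for 9 of the 18 and higher for none. With the replicate block STING1 also rose in L428 (0.58, limma adjusted p = 0.0446), and STING1, TBK1 and TICAM1 joined the genes with a lower interaction (0.01, 0.0394 and 0.029).

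**Figure D4:**
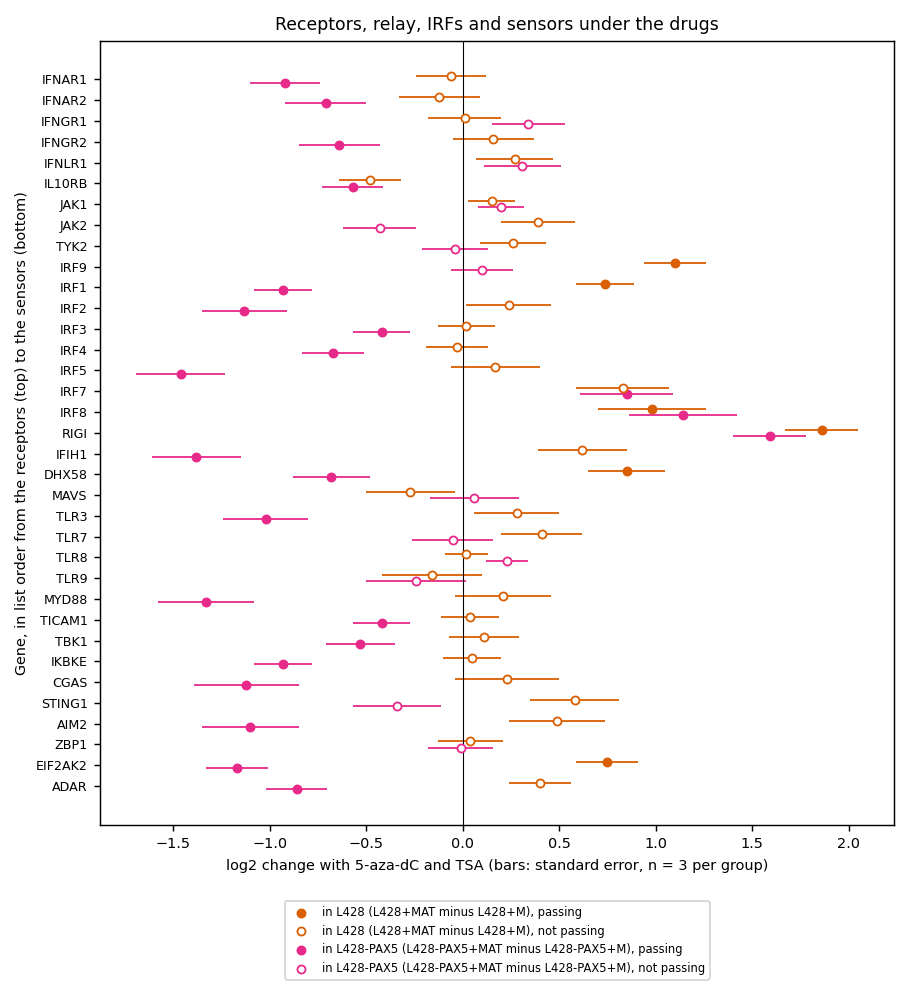
Log2 change under 5-aza-dC and TSA for the receptor chains, relay genes, interferon regulatory factors and sensors (top to bottom), in L428 (orange) and in L428-PAX5 (pink), with bars for the standard error (n = 3 per group) and filled points for an adjusted p below 0.05. RIGI and IRF8 are filled above 0 in both lines, and IRF1, DHX58 and EIF2AK2 are filled on opposite sides.

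The list of 9 brakes on interferon signalling includes TRIM25, a ubiquitin ligase known to activate RIG-I. None of the 9 passed in L428, nor any at an unadjusted p below 0.05 in limma. In L428-PAX5, where 19.4% of all genes fell, 5 of them fell, among them TRIM25 (-0.65 ± 0.12). The largest of these falls were those of CISH, a SOCS family inhibitor, at -1.02 ± 0.24, and the phosphatases PTPN2, at -0.89 ± 0.23, and PTPN6, at -0.78 ± 0.21. PTPN6 did not pass without L428-PAX5+M replicate 1 (limma adjusted p = 0.0549). With the replicate block SOCS1 fell in both lines (-0.60 and -0.69, limma adjusted p = 0.0348 and 0.00301), and the lower interactions went from TRIM25 alone to 3 genes with PTPN2 and PTPN6 (0.0217 and 0.0235). Of 28 other interferon-induced effectors, 11 rose in L428 and none fell, where 4.21% of all genes rose and 0.635% fell. In L428-PAX5 4 rose and 16 fell, where 14.2% of all genes rose and 19.4% fell. These 4 rises are therefore close to the share over all genes. The 4 were CXCL11, GBP2, GBP5 and CXCL10. CXCL11, a chemokine for activated T cells, had 5.53, 5.02 and 5.89 in L428+M against 8.99, 8.54 and 9.04 in L428+MAT, and 5.09, 4.88 and 5.35 against 9.53, 9.32 and 9.46 in L428-PAX5. It was 10.4-fold higher in L428 (limma adjusted p = 7.24e-08) and 20.1-fold higher in L428-PAX5 (limma adjusted p = 7.59e-10). GBP2, a guanylate-binding protein, had 6.57, 6.97 and 6.99 against 8.72, 9.32 and 10.25, and 6.33, 6.14 and 6.91 against 10.02, 9.98 and 10.10. Both genes are strongly induced by interferon gamma. Their rises were larger in L428-PAX5 by 0.95 ± 0.35 and 0.99 ± 0.45, which did not pass the interaction (limma adjusted p = 0.0765 and 0.147) but did with the replicate block (0.00448 and 0.0173).

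Of the other effectors, IFITM1, LAP3, PSMB9 and TAP1 rose in L428 and fell in L428-PAX5, and most of the falls were of genes that had not passed in L428. The L428 calls of TAP1 and LAP3 were lost in several fits with 1 array left out (limma adjusted p up to 0.193 and 0.138). With only the groups compared, those of TAP1, LAP3 and PSMB9 were lost (limma adjusted p = 0.111, 0.111 and 0.0584). Without replicate 2 of L428-PAX5+MAT, the falls of SP100 (-0.21, limma adjusted p = 0.32), TNFSF10 (-0.41, 0.208) and ZC3HAV1 (-0.37, 0.124) in L428-PAX5 did not pass. TRIM38 then rose in this line (0.48, limma adjusted p = 0.011). APOL6 had 9.19, 9.20 and 9.46 in L428-PAX5+M against 6.72, 5.79 and 7.86 in L428-PAX5+MAT, a change of -2.49 ± 0.32. NMI, the partner of IFI35, had 10.63, 10.02 and 10.67 against 8.53, 7.54 and 9.07, or -2.06 ± 0.29, and IFITM1, a membrane protein that blocks viral entry, rose by 0.90 ± 0.16 in L428 and changed by -1.35 ± 0.16 in L428-PAX5. The interaction was lower for 15 of the 28 and higher for none in the fit without a block. Besides the block results, CXCL11 was higher under quantile normalization (1.06, limma adjusted p = 0.0349) and without L428+M replicate 2 (1.18, 0.0326). GBP2 was higher without L428+MAT replicate 3 (1.40, limma adjusted p = 0.0207). With the block 3 more effectors were higher in L428, APOL6, SP100 and UBE2L6 (limma adjusted p = 0.0471, 0.0365 and 0.0189), and in L428-PAX5 GBP4 and PML fell (0.0461 and 0.00642) and TRIM38 rose (0.0482). The proteins of the IFITM family have near-identical sequences, and their probe sets may share signal. Restricting the fit to the groups compared gave 7 higher effectors in L428 in place of 11.

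The untreated Burkitt lines carried less of most of these transcripts than L428+M. The mean of Raji and Namalwa was lower in 26 of the 40 genes and higher in 7, where 16.7% of all genes were lower and 18.7% higher, and the median log2 difference was -1.25 for the 40 genes against 0.03 for all genes. HERC6 had 5.60, 5.37 and 5.54 in Raji and 4.63, 5.25 and 5.24 in Namalwa against 9.42, 9.39 and 9.65 in L428+M, 18.6-fold lower (limma adjusted p = 1.75e-12). HERC5 had 5.01, 5.61 and 5.13 and 5.02, 4.85 and 4.98 against 8.82, 8.91 and 9.01, 14.0-fold lower (limma adjusted p = 3.43e-14). Both ligase genes were low in both Burkitt lines, as was DDX60, with 4.01, 4.33 and 4.44 in Raji, 4.52, 4.29 and 4.64 in Namalwa and 7.82, 7.89 and 7.84 in L428+M. SAMD9L and PARP14 differed by -3.33 ± 0.24 and -3.26 ± 0.23. For SAMD9L this came mostly from Raji, with a group mean of 5.24. Namalwa averaged 10.61 for this gene, much nearer to the L428+M mean of 11.25. PARP14 was lower in both Burkitt lines, with means of 4.63 (Raji) and 6.90 (Namalwa) against 9.02. The standard errors reflect the spread of arrays within groups and leave out the gap between Raji and Namalwa.

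The higher genes were TRIM22 (2.36 ± 0.15), IFI27 (1.72 ± 0.18), OAS2 (1.33 ± 0.18), LGALS3BP (1.07 ± 0.14), IFI16 (0.94 ± 0.26), ISG20 (0.79 ± 0.13) and OAS1 (0.76 ± 0.14). A mean of both lines hides their differences for some of these. IFI27 had 5.55, 5.62 and 6.20 in Raji, overlapping with L428+M, and 9.55, 9.72 and 9.44 in Namalwa. LGALS3BP had 8.80, 8.61 and 8.46 in Raji and 6.59, 6.42 and 6.13 in Namalwa, and OAS1 had 8.84, 8.70 and 8.54 in Raji and 9.95, 9.96 and 9.97 in Namalwa. TRIM22, with 6.91, 6.76 and 6.60 in Raji and 8.97, 8.77 and 9.06 in Namalwa, was above L428+M in both. IFI16 was too, with 11.80, 11.70 and 12.32 in Raji and 12.37, 12.36 and 12.83 in Namalwa. ISG15 was close in all 3 lines, with 7.63, 7.58 and 7.25 in Raji and 8.13, 8.17 and 8.19 in Namalwa, and did not pass (limma adjusted p = 0.557). RSAD2 (-0.36 ± 0.13, limma adjusted p = 0.0306) lost its call when an array was left out, and 32 of the 33 calls were kept without any 1 array.

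Raji and Namalwa differed from each other in 24 of the 40 genes, and in 19.2% of all genes. Raji was lower in 20 and higher in 4, where 11.5% of all genes were lower and 7.74% higher, with a median of -0.70 for the 40 genes and 0.04 for all genes. IFI44L had 5.15, 5.04 and 5.95 in Raji and 11.31, 11.43 and 11.57 in Namalwa, 66.5-fold lower in Raji (limma adjusted p = 8.87e-11). SAMD9L had 5.06, 5.18 and 5.48 against 10.47, 10.52 and 10.85, MX1 had 5.65, 5.64 and 5.36 against 10.66, 10.28 and 10.62, and MX2 had 5.19, 5.23 and 5.30 against 9.82, 9.63 and 9.73. The gaps were 41.4-fold, 31.4-fold and 22.4-fold, and in these 4 genes the Namalwa mean was within 1 log2 unit of L428+M or above it, while Raji was far below. PARP12 had 6.53, 5.65 and 6.22 in Raji and 10.25, 10.10 and 9.91 in Namalwa.

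The direction was not shared by all. LGALS3BP was 4.73-fold higher in Raji (limma adjusted p = 2.99e-09), and DTX3L (1.28 ± 0.27), PARP9 (1.09 ± 0.28) and BST2 (0.84 ± 0.14) were higher as well. DTX3L had 9.48, 9.62 and 9.92 in Raji and 8.39, 8.39 and 8.42 in Namalwa, PARP9 had 7.82, 7.76 and 7.82 against 6.50, 6.62 and 7.02, and BST2 had 9.29, 9.38 and 9.20 against 8.44, 8.41 and 8.49. So PARP9 and DTX3L, which share the match shown above, were higher together in Raji, and PARP14, with 1 protein-coding gene between it and DTX3L, was 4.83-fold lower. OAS3, RSAD2, CMPK2, RTP4 and IFIT2 were among the 16 that did not pass. In the fit with the replicate block, IFI16 (limma adjusted p = 0.019), ISG15 (0.00647) and USP18 (0.00103) were also lower in Raji. IFIT1, with 5.10, 5.49 and 5.51 in Raji and 5.92, 5.90 and 5.86 in Namalwa, lost its call without Raji replicate 1 (limma adjusted p = 0.106) or Namalwa replicate 1 (0.0513). IRF9 was lower in Raji too, with 7.27, 7.32 and 7.66 against 9.24, 9.21 and 9.15.

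**Figure D5:**
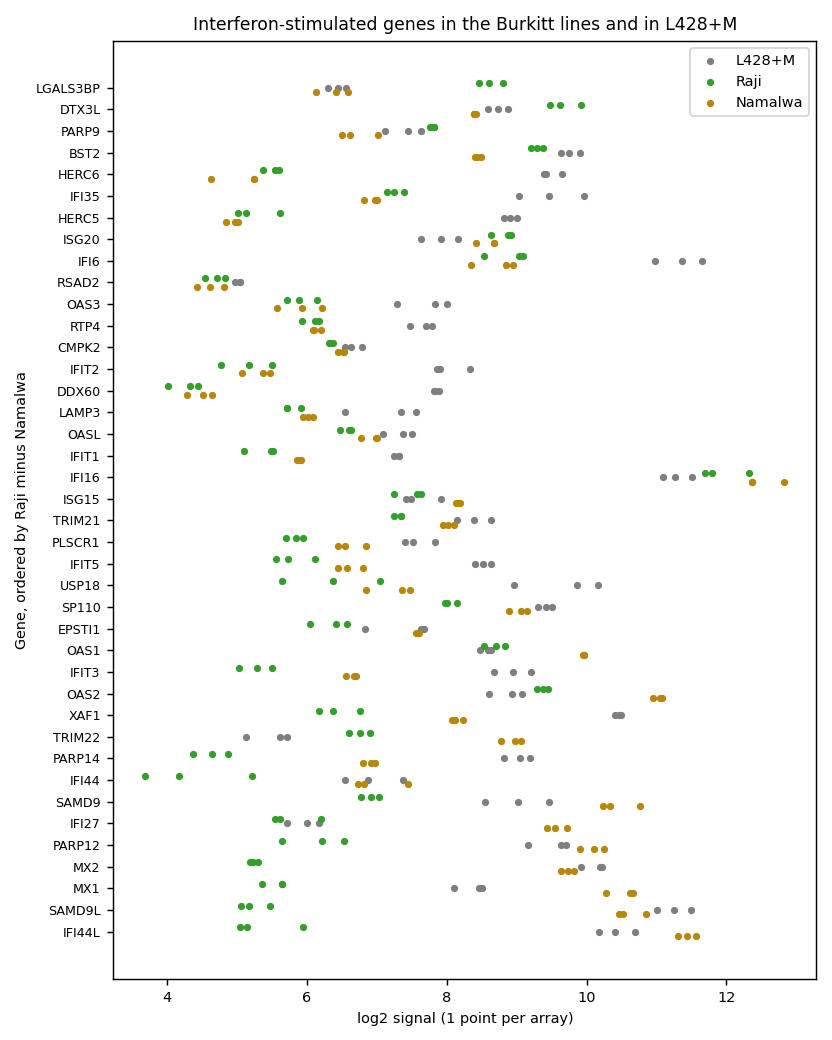
Log2 signal of the 40 genes on each array of Raji (green), Namalwa (gold) and L428+M (grey), with 1 point per array and the genes ordered from the highest to the lowest Raji minus Namalwa difference. LGALS3BP, DTX3L, PARP9 and BST2 are at the top, and MX2, MX1, SAMD9L and IFI44L at the bottom have Raji arrays between 5.04 and 5.95 and Namalwa arrays between 9.63 and 11.57.

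Several of these genes lie next to each other, and neighbours did not always move together. HERC5 and HERC6 are adjacent on chromosome 4 and both rose in L428, but in L428-PAX5 HERC5 rose by 0.73 ± 0.16 and HERC6 changed by -1.25 ± 0.23. In the IFIT cluster on chromosome 10, IFIT1 and IFIT5 rose in both lines, adjacent IFIT2 and IFIT3 rose in neither by the test, and IFIT3 fell in L428-PAX5. OAS1, OAS3 and OAS2, which follow each other on chromosome 12, all rose in L428, and in L428-PAX5 OAS1 and OAS2 fell while OAS3 between them changed by -0.01 ± 0.20. SAMD9 and SAMD9L on chromosome 7 changed by 0.18 ± 0.25 and -1.66 ± 0.28 in L428-PAX5, and IFI44 and IFI44L on chromosome 1 by -0.65 ± 0.36 and -2.25 ± 0.34. By contrast CMPK2 and RSAD2 on chromosome 2 moved alike, passing in L428 and not in L428-PAX5, and PARP9 and DTX3L on chromosome 3 passed in the same direction in each of the 6 comparisons in which either passed. Differences between neighbouring genes within a comparison were not tested.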

How the data were processed

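Total RNA of 18 samples was measured on Affymetrix whole-transcript arrays, and the authors deposited log2 values of 33297 probe sets per array. Per the submitters' processing notes these were made with RMA in Partek; their versions and order are not given in the sources used here. Values ran from 2.24 to 14.64 with array medians from 6.52 to 6.7, and were used as deposited. Arrays have no read depth, and the number of arrays limits the precision.

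Genes were named from the platform annotation, in which 19460 probe sets carry 1 symbol, 1754 several and 12083 none. The probe set with the highest mean stood for each of 18417 genes, 769 of which had more than 1. Of the gene identifiers, 19429 matched RefSeq, and no symbol changed. Some pathway genes are not reported here.

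A linear model with 1 mean per group was fitted to all 18 arrays with limma 3.58.1 (lmFit and eBayes) in R 4.3.3, with 12 residual and 6.1 prior degrees of freedom. P-values were adjusted by Benjamini-Hochberg over all genes, 0.05 was the threshold, and changes of at least 2-fold were counted as well. The fit was tested on simulated data. The rest was done in Python 3.11.15 (numpy 2.4.6, pandas 2.3.3, and matplotlib 3.10.9 for plots). Same-numbered arrays of the 4 L428 groups deviated together from their group means (r 0.273 to 0.655 in all 18 pairs), so replicate numbers pair those samples by the data. They did not pair L428 with Burkitt arrays throughout (lowest r -0.014).

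The alternatives were the replicate number as a block, only the groups compared, array medians subtracted, quantile normalization, the mean of a gene's probe sets, dim genes left out (12572 genes above 6.62) and each array left out in turn. Promoter windows came from RefSeq, build GRCh38.p14. The members and the pathway, role and marker lists were chosen with earlier results of these data known. By the rule for naming, a fixed set of well-known members was given per array, with up to 5 passing rises and falls per comparison, the members that opposed the rest or passed the interaction, and up to 3 rises and falls per pathway list.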

Additional observations from a re-analysis of the deposited data

Results flagged for a closer look

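The drug change differed between L428 and L428-PAX5 for 33 of the 40 genes by the interaction test (limma, adjusted p below 0.05), all 33 lower in L428-PAX5, with 0 higher. The values given here are log2 changes in L428-PAX5 minus those in L428. Among the restriction factors and nucleic acid proteins they were -3.31 for MX1, -1.77 for MX2, -3.16 for TRIM22, -2.42 for DDX60, -2.32 for SAMD9L, -1.43 for ISG20, -1.29 for RSAD2, -1.29 for IFI16, -1.06 for BST2 and -1.03 for CMPK2. The oligoadenylate synthetases OAS1, OAS2 and OAS3 had -2.78, -3.39 and -2.15. IFIT1 and IFIT3 had -0.81 and -2.20.

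HERC6, the relative of HERC5, had -2.15, the protease USP18 had -1.80 and the ubiquitin ligase TRIM21 had -1.72. PARP9, PARP12, PARP14 and DTX3L had -3.07, -2.13, -2.31 and -2.86. Of the remaining induced proteins, IFI44L had -3.54, XAF1 -2.61, IFI35 -2.35, IFI44 -2.13, LGALS3BP -2.13, IFI27 -2.12, EPSTI1 -1.92, PLSCR1 -1.32, LAMP3 -1.26, RTP4 -1.21 and SP110 -1.11.

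Of the pathway lists, the interaction was lower for 1 of 6 receptor chains, 2 of 4 relay genes (IRF9 and JAK2), 3 of 7 interferon regulatory factors, 9 of 18 sensors and adaptors, 1 of 9 genes listed as brakes (TRIM25, which is known to activate RIG-I) and 15 of 28 other effectors, where 10.6% of all genes were lower. JAK2 lost its call without any 1 of 8 arrays (limma adjusted p up to 0.142, without L428-PAX5+MAT replicate 2), with only the groups compared (0.0635), with array medians (0.0608) and under quantile normalization (0.162), and TRIM25 under quantile normalization (0.0543). With the replicate block IFNGR2 (-0.80), IRF4 (-0.63), IFITM2 (-0.75) and PML (-0.75) were lower as well.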

How the results depend on the processing

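No call of the 40 genes changed direction under any of the alternatives. Among counts of calls over the 40 genes, the one that moved by more than 1.5 times with another model was the number of lower genes when L428-PAX5+M was compared with L428+M, which went from 5 to 9 with the replicate block. Many counts over the short pathway lists moved by more than that. The number of rises of at least 2-fold in L428-PAX5 went from 1 to 3 under quantile normalization. Of 280 changes (40 genes in 7 comparisons), the block added 19 calls and ended none, subtracting array medians ended 7 and added 1, quantile normalization ended 7 and added 1, and restricting the fit to the groups compared ended 9 and added 5. Leaving out dim genes ended none and added 1 of the 273 changes that remained, and the mean of a gene's probe sets left all 280 calls as they were, since each of the 40 genes has 1 probe set. Block results that changed a call in L428 or between Raji and Namalwa stand beside the results, and the block changed no other call of the 40 genes there.

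With 1 array left out at a time, the drugs in L428 gave 25 to 28 higher genes and 0 to 0 lower ones, and the drugs in L428-PAX5 gave 4 to 6 higher and 18 to 22 lower. The lines without drugs gave 5 to 7 higher and 2 to 5 lower, and with drugs 0 to 0 higher and 36 to 37 lower. The interaction gave 0 to 1 higher and 32 to 34 lower. The Burkitt comparison gave 7 to 7 higher and 25 to 26 lower, and Raji against Namalwa 4 to 4 higher and 19 to 21 lower. Low signals compress differences on arrays, so the folds of genes near the lowest values may be understated.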

Other observations

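OAS2, IFI16, IFI27, ISG15, SAMD9 and TRIM22 had their highest group mean in Namalwa, and the 3 arrays of Namalwa lay above every array of the next group for 4 of these 6. The same was not counted over all genes. The SD within a group, as the median over the 40 genes, was 0.39 in L428-PAX5+MAT and between 0.14 and 0.23 in the other 5 groups.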
